A study of Drosophila melanogaster with 12 samples.

Results

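Female Drosophila melanogaster that expressed the male-specific lethal 2 gene, msl-2, from a transgene (MSL2 females) were compared with females without it (control females). The comparison used 6 of the 12 RNA-seq libraries of the series, 3 biological replicates a group, and every gene of the deposited tables of X-linked and autosomal counts. Of 14161 genes kept, with 1 transcript a gene, 13060 had enough counts to be tested, 2075 from the X-linked and 10985 from the autosomal table, which also holds 22 tested Y-linked genes. Per the labels, RNA came from whole adult flies, whose age is not given. MSL2 females had the genotype y w; (w+) H83M2-6I/+; +/+, with 1 copy of the P-element insert on chromosome 2. Control females were y w; +/+; TM3/+. Both groups thus carried the X-linked markers y and w, and the insert was marked by a mini-white gene. H83M2 is the name of a construct in which the Hsp83 promoter, active in nearly all cells, drives msl-2. The control females carried TM3, a multiply inverted balancer, over 1 chromosome 3, while the MSL2 females did not, so the transgene and the balancer cannot be told apart as sources of a difference between these groups.

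In male flies the MSL complex coats the single X chromosome and raises its transcription. Its proteins are the MSL2 and MSL1 core, MSL3, the acetyltransferase MOF, which acetylates lysine 16 of histone H4, and the helicase MLE, and it carries either of the long noncoding RNAs roX1 and roX2. Females normally block translation of msl-2 mRNA through Sex-lethal, so the complex does not form on their X chromosomes. Forced MSL2 expression in females is known to let the complex assemble on both of them.

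The transgene product and the noncoding RNAs of the complex separated the groups by an order of magnitude or more. The levels below are CPM, counts scaled to a common library size and for composition, which allow comparison of a gene between libraries but not of genes with each other, because they are not corrected for length. msl-2 had 513, 447 and 616 CPM in MSL2 females 1, 2 and 3, against 15.2, 18.8 and 18.1 CPM in control females 1, 2 and 3. Every MSL2 female was far above every control female, with a log2 fold change of 4.92 ± 0.18 (SE; adjusted p = 1.17e-07, edgeR). The count of msl-2 cannot separate transcripts of the insert from those of the resident gene. roX1 had 112, 128 and 116 CPM in MSL2 females, against 6.30, 4.93 and 1.13 CPM in control females (log2 fold change 4.89 ± 0.46, edgeR adjusted p = 0.00018). roX2 had 699, 398 and 495 counts in MSL2 females, against 9, 6 and 9 counts in control females (log2 fold change 6.38 ± 0.25, edgeR adjusted p = 1.75e-07). The groups did not overlap for either RNA. Both were present in all control females, roX1 at 216, 279 and 87 counts and roX2 at the few counts given above. White, the eye pigment transporter gene w that marks the insert, had 17.9, 18.3 and 19.99 CPM in MSL2 females, against 0.38, 0.92 and 0.85 CPM in control females (log2 fold change 4.63 ± 0.23, edgeR adjusted p = 1.11e-06). All 4 calls held when any 1 of the 6 libraries was left out, in fits that kept the male libraries.

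**Figure D1:**
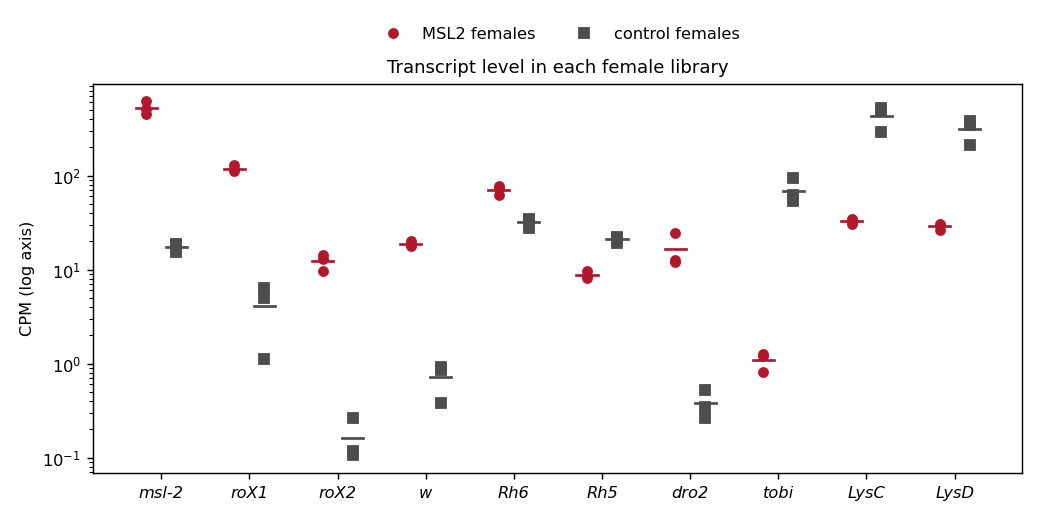
CPM on a log axis of msl-2, roX1, roX2, w, Rh6, Rh5, dro2, tobi, LysC and LysD in each library, with MSL2 females left of control females; points are libraries and bars are group means. The groups do not overlap for any of the 10 genes: msl-2, the roX genes, w, Rh6 and dro2 were higher in MSL2 females, and Rh5, tobi, LysC and LysD were lower.

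No other protein gene of the complex was called higher. msl-3 had 16.3, 19.7 and 17.4 CPM in MSL2 females, against 24.2, 23.1 and 20.8 CPM in control females, and fell by 0.35 ± 0.09 on the log2 scale (edgeR adjusted p = 0.030). This call was lost without MSL2 female 1, control female 1 or control female 2 (adjusted p up to 0.116). msl-1 averaged 68.2 ± 20.8 CPM in MSL2 females and 93.6 ± 14.9 CPM in control females (SD, n = 3 each), and the groups overlapped (log2 fold change -0.46 ± 0.20, edgeR adjusted p = 0.147). The log2 fold changes of mle, mof and the DNA-binding zinc finger gene Clamp were -0.04, 0.06 and -0.14, none of which passed the test. Of 14 genes for the NSL complex and other X chromatin partners, 0 rose and 1 fell, beside 6.62% and 3.67% of all genes. That gene was MBD-R2, a subunit of the NSL complex (log2 fold change -0.29), whose call was lost without MSL2 female 1 or 2 or control female 1 or 2 (adjusted p up to 0.167). By unadjusted p, 0 of these 14 genes were higher and 4 lower, and DESeq2 called 0 higher. None of 14 sex determination genes passed the test with edgeR or DESeq2, and 1 was higher by unadjusted p. Sxl, the switch gene that represses msl-2 translation in females, had 184, 216 and 204 CPM in MSL2 females, against 196, 187 and 178 CPM in control females.

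The X chromosome as a whole was shifted upward relative to the autosomes. X-linked genes had a median log2 fold change of 0.19, while the 4 large autosomal arms had medians near 0, between -0.05 and -0.03. With scaling factors from autosomal genes alone the X-linked median was 0.23 and that of 2R turned positive, at 0.008. The other 3 arms then lay between -0.02 and -0.004. With DESeq2 size factors the X-linked median was 0.15, and the 4 large autosomal arms lay between -0.09 and -0.07. The scaling sets the zero point, so a rise of X-linked genes and a fall of autosomal genes cannot be told apart. The difference of the X-linked and autosomal medians was 0.23, a factor of 1.17. Per library, X minus autosome was taken as the median log2 difference from the control female mean over X-linked genes minus that over autosomal genes. It was 0.242, 0.207 and 0.234 in MSL2 females, against 0.003, 0.013 and -0.012 in control females. The means were 0.228 ± 0.018 in MSL2 females and 0.001 ± 0.013 in control females (SD, n = 3 each), with a gap between the groups. By exact permutation, two-sided, p was 0.1, which is the minimum that 3 against 3 libraries can give. Control female values lie near 0 by construction, because their own mean was the zero point. Taken from the mean of all 6 female libraries, a zero point added after seeing the data, X minus autosome was 0.125, 0.097 and 0.132 in MSL2 females, against -0.123, -0.102 and -0.126 in control females. X-linked genes held 18.3, 18.6 and 18.9% of all counts in MSL2 females, against 17.2, 17.1 and 16.8% in control females.

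**Figure D2:**
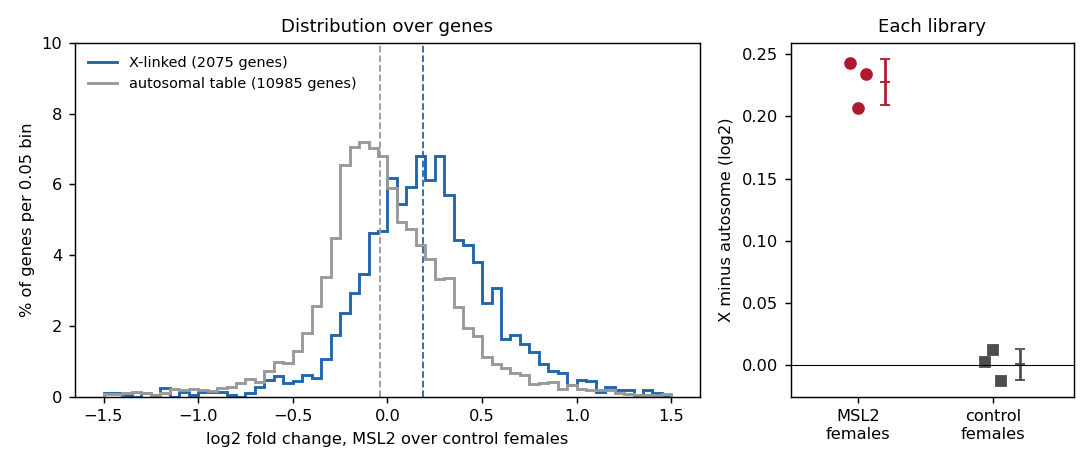
Left, the distribution of log2 fold changes (MSL2 over control females) of 2075 X-linked and 10985 autosomal genes in bins of 0.05, with medians dashed; 49 X-linked and 230 autosomal genes lie beyond the axis. Right, X minus autosome (log2) in each library with mean and SD; the 3 MSL2 females lie between 0.207 and 0.242 and the control females near 0.

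On the X chromosome 457 of 2075 tested genes rose, 22.0%, while 15 fell, 0.723%, at an adjusted p under 0.05 (edgeR, all 12 libraries in the fit). Among the 10985 autosomal genes 408 rose, 3.71%, and 464 fell, 4.22%, so that 7.94% passed the test. The number of X-linked rises was 251 without control female 1 and 267 without control female 2. Fitted on the 6 female libraries alone, where the spread between libraries was estimated higher (biological coefficient of variation 0.154 against 0.110), 72 X-linked genes rose, 3.47%, and 0 fell, against 37 autosomal rises, 0.337%, and 47 falls, 0.428%. By unadjusted p, 30 X-linked genes were lower in that fit, and DESeq2 called 21 lower over all 12 libraries. Counted without a test, CPM was higher in every MSL2 female than in every control female for 711 X-linked genes, 34.3%, against 9.05% of autosomal genes. It was lower in every MSL2 female for 2.55% of X-linked and 15.6% of autosomal genes.

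The shift was broad and small. Log2 fold changes of X-linked genes ran from -0.44 at the 5th percentile to 0.84 at the 95th percentile, and 73.2% were above 0. A fitted fold above 1.25 was found for 33.0% of X-linked and 15.9% of autosomal genes, one above 1.5 for 12.7% and 6.06%, and one above 2 for 3.23% and 1.98%. A fall beyond 1.25-fold was found for 6.31% of X-linked and 14.8% of autosomal genes. All quartiles of expression level showed it. From the lowest to the highest quartile of mean log2 CPM, the X-linked medians were 0.25, 0.19, 0.17 and 0.18. The autosomal medians in the same quartiles were 0.07, -0.03, -0.09 and -0.05. The number of X-linked genes that rose was 32 of 463 in the lowest quartile and 172 of 609 in the highest, where counts were deepest.

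The upward shift ran along the whole X chromosome. In gene order from the RefSeq annotation, each of 21 consecutive blocks of 98 or 99 tested X-linked genes had a median above 0, between 0.04 and 0.31. Each block held 12 to 37 genes that rose and 0 to 4 that fell. The median over the block from beta-Spec, which encodes a spectrin of the membrane skeleton, to CG6873 was 0.31, the highest. Over the block from CG32795 to CG12184 it was 0.04, the lowest. Of 108 autosomal blocks of about 100 genes, 22 had a median above 0, and block medians ran from -0.13 to 0.06. Each autosomal block held 0 to 10 genes that rose.

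**Figure D3:**
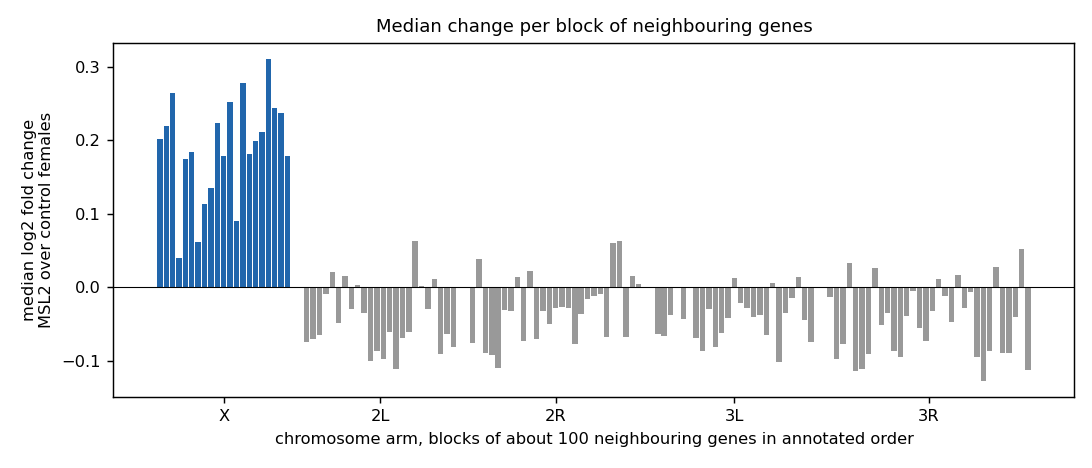
Median log2 fold change (MSL2 over control females) of consecutive blocks of about 100 tested genes, in gene order along each chromosome arm. The 21 X blocks lie between 0.04 and 0.31, and the 108 autosomal blocks between -0.13 and 0.06.

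Neighbouring X-linked genes were in places called one after another. Runs of at least 5 consecutive tested genes that all rose occurred 9 times on the X chromosome, each of 5 or 6 genes. One run held dor (deep orange, a vacuolar sorting protein), CG3740, hfw, CG32809, CG14797 and b6. Another held the complex I subunit gene CG3621, the cytochrome P450 genes Cyp4d14, Cyp4d2 and Cyp4ae1, and pn (prune). One more run held Vps26, a retromer subunit gene, and 4 genes known by CG numbers. On the 4 large autosomal arms the single run of that length was one of falls, of 6 lysozyme genes on 3L. Chromosome 4 and the Y chromosome were not searched for runs. Genes beside the roX genes, which are known entry sites of the complex, were looked at apart. Of the 20 nearest tested genes, 10 on each side, 3 rose around roX1 (median log2 fold change 0.17) and 4 rose around roX2 (median 0.13), beside 22.0% of all X-linked genes.

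Several protein complexes draw subunits from the X chromosome and the autosomes alike. Their genes were counted by list, and the lists were compared by the share of the list's CPM that came from X-linked members. For the respiratory chain and ATP synthase of mitochondria, X-linked genes gave 15.9, 15.5 and 15.5% of the list's CPM in MSL2 females, against 11.1, 11.5 and 11.3% in control females. For the mitochondrial ribosome the shares were 22.5, 20.2 and 20.3% in MSL2 females, against 16.5, 16.5 and 16.7% in control females. For the cytosolic ribosome they were 18.3, 17.3 and 17.2% in MSL2 females, against 14.7, 14.99 and 15.1% in control females. All MSL2 females were above all control females for each of these lists. For the cytosolic ribosome the X-linked sums overlapped, at 14405, 15617 and 16426 CPM in MSL2 females, against 14786, 15306 and 14432 CPM in control females. Its autosomal sums were lower in every MSL2 female, at 64523, 74748 and 79084 CPM, against 85867, 86798 and 81315 CPM in control females. The autosomal sums of the mitochondrial ribosome were also lower in every MSL2 female, at 2025, 1986 and 2042 CPM, against 2141, 2205 and 2315 CPM in control females. The proteasome, which degrades ubiquitin-tagged proteins, gave 19.3, 18.01 and 17.9% in MSL2 females, against 13.7, 13.6 and 14.1% in control females. The vacuolar ATPase, a proton pump of endosomes and lysosomes, gave 5.12, 5.16 and 5.23% in MSL2 females, against 3.84, 3.96 and 3.82% in control females. As ratios of the group means these shares stood at 1.38 for the respiratory list, 1.27 for the mitochondrial ribosome, 1.18 for the cytosolic ribosome and 1.33 for each of the other two. Among other lists this ratio went both ways, at 0.73 for eggshell, 0.95 for photoreceptor, 0.98 for cytochrome P450 and 1.47 for immune genes. Of the counts of all genes, X-linked genes held 18.3, 18.6 and 18.9% in MSL2 females, against 17.2, 17.1 and 16.8% in control females. The shares weigh genes by their reads and not per length, and describe the libraries without a test.

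**Figure D4:**
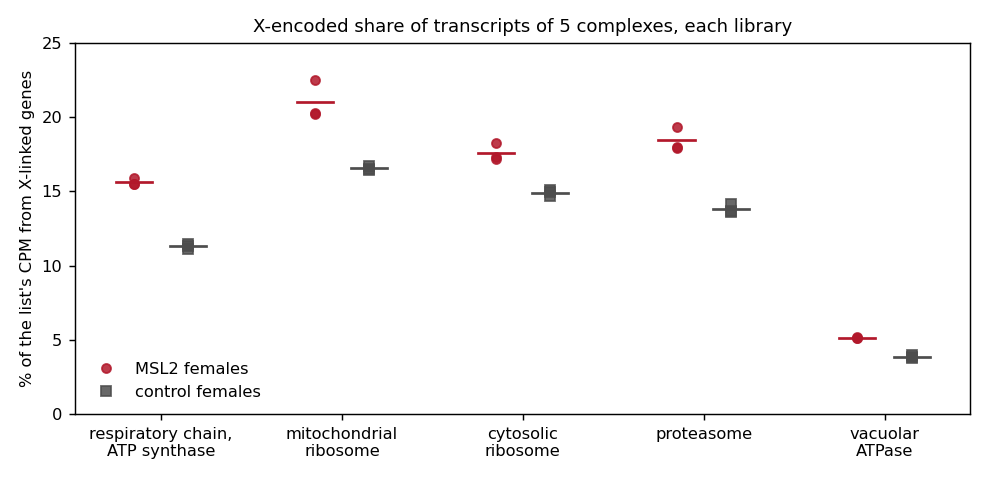
Percentage of each complex's summed CPM that came from its X-linked genes, in each library, with MSL2 females left of control females. The 3 MSL2 females lie above the 3 control females for all 5 complexes, at 15.5 to 15.9% against 11.1 to 11.5% for the respiratory chain and ATP synthase.

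X-linked subunit genes of the respiratory chain had the highest median of these lists. Of 13 X-linked members 11 rose, with a median log2 fold change of 0.78 over the 13, while 2 of 72 autosomal members rose, CG7181 (COX8) and CG9306 (ND-B22), and 0 fell (median 0.18). By unadjusted p 10 autosomal members were higher and 3 lower, and DESeq2 called 4 higher and 0 lower. CG3621, the complex I subunit ND-B14.5A, had 233, 187 and 169 CPM in MSL2 females, against 105, 102 and 121 CPM in control females (log2 fold change 0.84 ± 0.11, edgeR adjusted p = 0.00141). CG5703, the complex I subunit ND-24, had 442, 317 and 323 CPM in MSL2 females, against 197, 194 and 231 CPM in control females (log2 fold change 0.80 ± 0.12, edgeR adjusted p = 0.00276). Neither gene overlapped between the groups, and in both MSL2 female 1 was highest. CG3560, the complex III subunit UQCR-14, had 1010, 799 and 672 CPM in MSL2 females, against 463, 428 and 533 CPM in control females (log2 fold change 0.80 ± 0.13). CG3192, the complex I subunit ND-ASHI, had a log2 fold change of 0.75 ± 0.13. The other 7 that rose were the complex I genes ND75, CG9172 (ND-20), CG12203 (ND-18), CG18624 (ND-MNLL) and CG5548 (ND-B18), CG14235 (COX6B, of complex IV) and l(1)G0230, the delta subunit of ATP synthase, with log2 fold changes of 0.61 to 0.85. Of the 11 calls, those of CG14235 and l(1)G0230 were lost without control female 1 or 2. The 2 that did not pass were CG3446 (ND-B16.6) at 0.45 and CG7349 (SdhBL), at about 1 CPM in every female library, at 0.11.

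Muscle, a tissue rich in mitochondria, differed between these libraries. The summed CPM of 29 muscle genes was 112735, 71969 and 66524 in MSL2 females, against 56624, 57970 and 79214 in control females, so the groups overlapped and MSL2 female 1 was highest. Of the 29 genes, 1 (Zasp66) rose and 0 fell, beside 6.62% and 3.67% of all genes. None of the 29 was at 0 counts in any of the 6 libraries. By unadjusted p 11 were higher and 0 lower, and DESeq2 called 4 higher and 0 lower. The number of muscle genes that rose was 11 without MSL2 female 3, 3 without control female 3 and 0 without any 1 of the other 4. The part of muscle RNA in the respiratory result was not tested. The number of X-linked respiratory genes that rose was 9 to 12 when 1 library was left out, and 0 passed in the fit on 6 female libraries, where 12 had an unadjusted p under 0.05. The number of autosomal respiratory genes that rose was 12 without MSL2 female 3, 5 without control female 3 and 0 without any 1 of the other 4 libraries.

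Mitochondrial ribosomal protein genes were counted by chromosome, beside 22.0% of all X-linked genes that rose and 4.22% of all autosomal genes that fell. Of 11 X-linked members 5 rose and 0 fell (median 0.25), and of 62 autosomal members 0 rose and 7 fell (median -0.14). By unadjusted p, 7 X-linked members were higher and 0 lower, and DESeq2 called 5 higher and 0 lower. Of the autosomal members 0 were higher and 25 lower by unadjusted p, and DESeq2 called 0 higher and 19 lower. mRpL14 had 52.0, 44.5 and 44.8 CPM in MSL2 females, against 26.8, 30.1 and 29.9 CPM in control females (log2 fold change 0.70 ± 0.08, edgeR adjusted p = 0.00057). mRpL49 had 53.7, 54.2 and 51.7 CPM in MSL2 females, against 38.4, 39.8 and 40.0 CPM in control females (log2 fold change 0.43 ± 0.05, edgeR adjusted p = 0.00114). mRpL16 rose by 0.57 on the log2 scale, and the autosomal mRpL46 fell by 0.31. Without control female 1 or control female 2 the X-linked rises numbered 3. Leaving out MSL2 female 2 or 3 gave 2 or 14 autosomal falls, and leaving out control female 1, 2 or 3 gave 3, 1 or 3. In the fit on 6 female libraries 2 X-linked and 0 autosomal members passed, while 7 and 15 had an unadjusted p under 0.05.

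**Figure D5:**
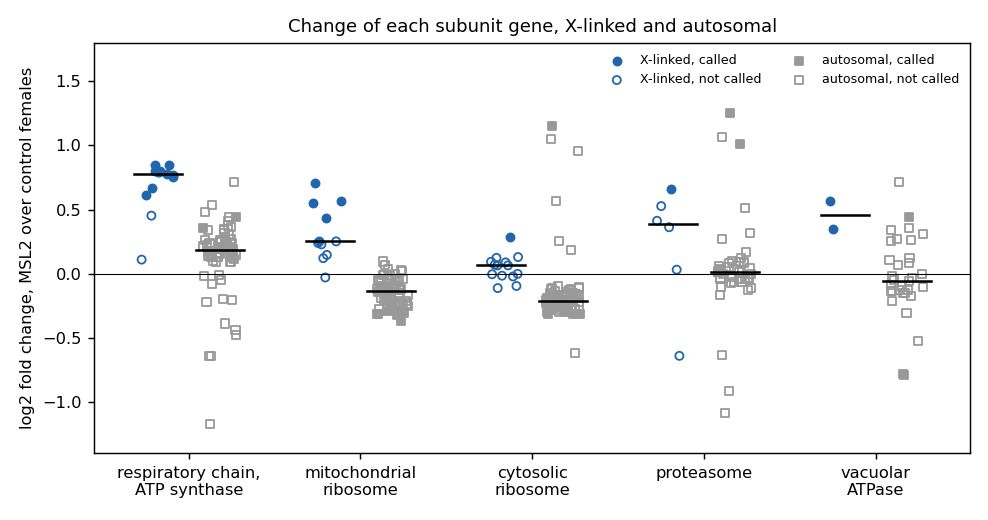
Log2 fold change (MSL2 over control females) of every tested subunit gene of 5 complexes, with X-linked genes as circles left of autosomal genes as squares. Filled symbols passed the test and bars are medians, at 0.78 for X-linked and 0.18 for autosomal respiratory genes.

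Cytosolic ribosomal protein genes, the proteasome and the vacuolar ATPase had fewer calls. Of all X-linked genes 22.0% rose, and of all autosomal genes 3.71% rose and 4.22% fell. RpS5a was the 1 X-linked cytosolic ribosomal protein gene of 14 that rose, with 1141, 1028 and 1073 CPM in MSL2 females, against 835, 897 and 926 CPM in control females (log2 fold change 0.29). Its call was lost without MSL2 female 1, control female 1 or control female 2. The median was 0.06 over the 14 X-linked and -0.21 over 78 autosomal members, of which RpS19b, below 3 CPM in every female library, rose by 1.15 and 5 fell, among them RpL23, RpS18 and RpS27 by 0.31 to 0.32. By unadjusted p 47 of the 78 autosomal members were lower and 2 higher, and DESeq2 called 20 lower and 2 higher. The list had 39 falls without MSL2 female 3, 1 without MSL2 female 1 and 0 when MSL2 female 2, control female 1 or control female 2 was left out. Pros45, an ATPase subunit of the proteasome cap (Rpt6), was the 1 of 6 X-linked proteasome genes that rose (log2 fold change 0.66), and its call was lost without MSL2 female 1, control female 1 or control female 2 (adjusted p up to 0.129). Of 42 autosomal proteasome genes Rpt3R and Rpt6R, relatives of cap ATPase genes, rose by 1.01 and 1.25. Rpt3R was at 1.65 CPM or less in every female library. Rpt6R had 20.4, 8.28 and 8.46 CPM in MSL2 females, against 4.67, 3.64 and 7.30 CPM in control females. The call of Rpt6R was lost without MSL2 female 1, control female 1 or control female 2 (adjusted p up to 0.144). Both X-linked genes of the vacuolar ATPase list rose. VhaAC39 had 449, 434 and 446 CPM in MSL2 females, against 335, 357 and 351 CPM in control females (log2 fold change 0.35 ± 0.06, edgeR adjusted p = 0.00532). CG8310 (Vha36-3) rose by 0.57 on the log2 scale, a call lost without control female 1 or 2 (adjusted p up to 0.0685). Of 32 autosomal members, CG31030 rose by 0.44 and CG7678 (Vha100-4) fell by 0.78. The levels of CG31030 overlapped between the groups, and its call was lost without MSL2 female 1 or 2 or control female 1 or 2 (adjusted p up to 0.166). The rises of the whole list numbered 5 without MSL2 female 3 and 1 without control female 1 or 2, and DESeq2 called 7 autosomal members lower.

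Genes were ranked among those called, without overlap between the groups and with a mean log2 CPM of at least 3 over the female libraries, a limit that leaves out roX2 and w. The largest X-linked rise after roX1 was that of CG32564, at 29.4, 11.2 and 19.3 CPM in MSL2 females, against 4.43, 4.96 and 8.88 CPM in control females (log2 fold change 1.71 ± 0.34). That call was lost without control female 2 (adjusted p = 0.0554). Cyp4d14, a cytochrome P450 gene, had 25.3, 18.7 and 21.2 CPM in MSL2 females, against 9.10, 9.32 and 10.8 CPM in control females (log2 fold change 1.16 ± 0.21, edgeR adjusted p = 0.00817). CG14195 had 17.95, 15.2 and 14.4 CPM in MSL2 females, against 7.18, 7.13 and 7.13 CPM in control females, a log2 fold change of 1.15 ± 0.12. Control females were tightly grouped for this gene. spirit, a serine protease gene of Toll pathway activation, had 12.4, 11.6 and 12.7 CPM in MSL2 females, against 5.13, 5.99 and 5.76 CPM in control females (log2 fold change 1.11 ± 0.10, edgeR adjusted p = 0.00018). FucTC, a fucosyltransferase gene, had 21.5, 18.3 and 17.7 CPM in MSL2 females, against 8.49, 8.25 and 10.2 CPM in control females (log2 fold change 1.10 ± 0.12). These genes about doubled, and their calls held without any 1 library. CG9689 and Neb-cGP also rose, by 1.01 and 0.98 on the log2 scale, with no call lost without 1 library. Neither passed in the fit on 6 female libraries (edgeR adjusted p = 0.0849 and 0.0517). b6 and rtv rose by 1.35 and 1.01, and both calls were lost without MSL2 female 1 or 2 or control female 1 or 2 (adjusted p up to 0.149).

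Few X-linked genes went the other way. Cp7Fb, a chorion gene cluster member, had 0.38, 11.9 and 14.9 CPM in MSL2 females, against 109.5, 63.0 and 31.1 CPM in control females (log2 fold change -2.92 ± 0.81, edgeR adjusted p = 0.0443). Obp19c, an odorant binding protein gene, had 1.46, 7.71 and 5.39 CPM in MSL2 females, against 32.6, 22.9 and 13.4 CPM in control females (log2 fold change -2.27 ± 0.48). Fcp3C, a follicle cell gene, fell by 1.18 and CG2990, the nuclease and helicase gene Dna2, fell by 0.97 on the log2 scale. CG9672 and CG1304 fell by 0.59 and 0.55. All 6 were lost by leaving out some single library. The call of Cp7Fb was lost without MSL2 female 2, control female 1 or control female 2 (adjusted p up to 0.145), that of Obp19c without control female 1 (0.0575) and that of Fcp3C without control female 2 (0.0505). The other 3 were lost without MSL2 female 1 or 2 or control female 1 or 2 (adjusted p up to 0.129).

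Calls were unevenly spread over the autosomes. On chromosome 2, which carries the insert, 5.19% of tested genes passed the test, on chromosome 3, where the groups differ by TM3, 10.3%, and on chromosome 4, 10.98%. In the fit on 6 female libraries, 8 chromosome 2 genes rose and 7 fell, against 28 and 40 of chromosome 3. By arm, 48 genes rose and 73 fell on 2L, 75 and 68 on 2R, 133 and 131 on 3L, and 142 and 192 on 3R. The 6 tested marker loci of TM3 had 0 calls with edgeR or DESeq2, and 0 at an unadjusted p under 0.05. Beside 10.3% of chromosome 3 genes, so few loci cannot show an effect of TM3 or its absence.

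By the same rule, the largest rise on chromosome 2 after msl-2 was CG6337, at 31.5, 19.97 and 19.94 CPM in MSL2 females, against 9.04, 10.9 and 12.8 CPM in control females (log2 fold change 1.12 ± 0.19). CG15155 rose by 1.06 and CG4269 by 1.12, the second of which was lost without MSL2 female 1 or 2 or control female 1 or 2 (adjusted p up to 0.0829). The 4 largest falls by the same rule were CG17571 at -1.76, the vitelline membrane gene psd (palisade) at -1.62, and CG9897 and CR42742 at -1.62 and -1.63. CR42742 is an antisense transcript of CG9897, and without strand-specific counting their reads cannot be told apart. All 4 calls were lost without control female 1 or 2. The call of CG17571 was also lost without MSL2 female 2, and that of psd without MSL2 female 2 or control female 3 (adjusted p up to 0.121).

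On chromosome 3, the sugar-responsive alpha-glucosidase gene tobi was nearly silent in MSL2 females, at 1.20, 1.28 and 0.82 CPM, against 53.1, 61.7 and 93.1 CPM in control females (log2 fold change -6.002 ± 0.29, edgeR adjusted p = 1.03e-06). CG10407 (Jhbp5) fell by 1.81. The lysozyme genes of the cluster on 3L, whose products digest bacterial cell walls in the gut, fell together. LysC had 33.7, 34.7 and 30.7 CPM in MSL2 females, against 488, 528 and 289 CPM in control females (log2 fold change -3.72 ± 0.29, edgeR adjusted p = 6.31e-05). LysD, LysB and LysE fell by 3.43, 3.22 and 3.10 on the log2 scale. These copies are near-identical and share reads, so their single values are uncertain. LysP fell by 0.72, and LysS, below 1 CPM in every female library, fell by 2.15. LysX was the 1 of 7 lysozyme genes that rose (log2 fold change 2.22), a call present only with all 6 libraries or without MSL2 female 1.

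CG42330, the cell adhesion gene Dscam4, had 18.5, 21.5 and 19.4 CPM in MSL2 females, against 7.26, 7.54 and 8.19 CPM in control females (log2 fold change 1.36 ± 0.09, edgeR adjusted p = 1.04e-05). CG14245 had 35.7, 23.8 and 21.1 CPM in MSL2 females, against 6.56, 7.50 and 12.2 CPM in control females (log2 fold change 1.61 ± 0.23). CG32206 and CG14567 rose by 1.16 and 1.08. CG18179 rose by 1.28, a call lost without MSL2 female 1 or any 1 control female (adjusted p up to 0.0757).

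All 9 chromosome 4 genes called were higher, 10.98% of the 82 tested, beside 3.71% of all autosomal genes that rose. In the fit on 6 female libraries 1 rose and 0 fell. The median over the 82 genes was 0.12, against 0.19 over X-linked genes and -0.04 over all autosomal genes. By unadjusted p 4 of the 82 genes were lower, and DESeq2 called 1 lower. Kif3C, a kinesin gene, had 5.59, 6.71 and 5.65 CPM in MSL2 females, against 2.19, 2.61 and 3.05 CPM in control females (log2 fold change 1.17 ± 0.14, edgeR adjusted p = 0.00084). mav, which encodes a TGF-beta family ligand, had 88.1, 93.4 and 83.2 CPM in MSL2 females, against 68.0, 65.6 and 67.1 CPM in control females (log2 fold change 0.40 ± 0.06). Neither gene overlapped between the groups. CG32021 and CG32017 rose by 0.62 and 0.59, and no call of these 4 genes was lost by leaving out 1 library. The other 5, CG11155, CG1909, yellow-h, CG1674 and dpr7, had log2 fold changes of 0.47 to 0.84. All 5 calls were lost without MSL2 female 2, control female 1 or control female 2, and 4 of them also without MSL2 female 1 (adjusted p up to 0.154).

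Of 32 tested photoreceptor genes 16 rose and 1 fell, with a median log2 fold change of 0.40 over the list, beside 6.62% of all genes that rose and 3.67% that fell. The number that rose was 10 without MSL2 female 2, 7 without control female 1 and 8 without control female 2, and 5 genes passed in the fit on 6 female libraries. Both rhodopsin genes of the R8 cell moved, in opposite directions. Rh6, the green-sensitive opsin, had 77.7, 71.6 and 62.5 CPM in MSL2 females, against 27.9, 34.1 and 34.3 CPM in control females (log2 fold change 1.14 ± 0.10, edgeR adjusted p = 0.00013). Rh5, the blue-sensitive opsin, had 9.64, 8.60 and 8.13 CPM in MSL2 females, against 19.1, 21.6 and 22.4 CPM in control females (log2 fold change -1.26 ± 0.09, edgeR adjusted p = 4.05e-05). Neither overlapped between the groups. Rh3 and Rh4, the ultraviolet-sensitive opsins of the R7 cell, rose by 0.45 and 0.75, the first of which was lost without control female 1 (adjusted p = 0.0616). ninaE, the main opsin of the outer photoreceptors, had a log2 fold change of 0.28 that did not pass (adjusted p = 0.120, edgeR). The light-gated channel gene trp had 524, 487 and 460 CPM in MSL2 females, against 303, 312 and 322 CPM in control females (log2 fold change 0.65 ± 0.07, edgeR adjusted p = 0.00060). The arrestin genes Arr1 and Arr2 rose by 0.61 and 0.58. Of the 16 that rose, 3 are X-linked and 13 autosomal. The eyes of the groups also differ in pigment through the mini-white marker, and its part was not tested. Of 19 eye pigment genes, w and dor rose, CG6969 (cardinal), under 4 CPM in every female library, fell by 1.11 on the log2 scale, and no other passed. The call of dor was lost without MSL2 female 2 or control female 1 and that of CG6969 without MSL2 female 2.

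Immune genes gave 5 rises and 0 falls among 44 tested, beside 6.62% and 3.67% of all genes. The largest was dro2 (Drsl2), a relative of the antifungal peptide gene Drosomycin, at 24.5, 12.7 and 12.1 CPM in MSL2 females, against 0.26, 0.53 and 0.35 CPM in control females (log2 fold change 5.39 ± 0.40, edgeR adjusted p = 4.73e-05). Every MSL2 female exceeded every control female, and the call held without any 1 library. Drosomycin itself, Drs, had 99.1, 133 and 103.7 CPM in MSL2 females, against 114, 110 and 89.6 CPM in control females, with overlap. The peptidoglycan sensors PGRP-LE and PGRP-SA, the 2 X-linked members of the list, rose by 0.51 and 0.76, and PGRP-SD on 3L rose by 0.81. CecA1, a cecropin gene at 1.78 CPM or less in the female libraries, rose by 2.17, a call lost without MSL2 female 2 or any 1 control female (adjusted p up to 0.0603), beside overlapping levels of the other antimicrobial peptide genes of the Diptericin, Attacin and Metchnikowin families. By unadjusted p 12 immune genes were higher and 6 lower, and DESeq2 called 9 higher and 1 lower. Without MSL2 female 3, 9 immune genes rose and 2 fell.

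Cytochrome P450 genes, which include detoxifying and hormone enzymes, were counted by chromosome. Of 15 X-linked cytochrome P450 genes 4 rose and 0 fell, and of 64 autosomal ones 1 rose and 6 fell, beside 22.0% of X-linked genes that rose and, of autosomal genes, 3.71% that rose and 4.22% that fell. Cyp4d2 on the X chromosome had 63.2, 43.2 and 49.2 CPM in MSL2 females, against 25.2, 26.2 and 30.4 CPM in control females (log2 fold change 0.93 ± 0.14). Cyp311a1, also X-linked, rose by 0.73. On the autosomes, Cyp6a8 fell by 1.36 and Cyp313a1 by 1.33, the second at 47.7, 31.9 and 24.7 CPM in MSL2 females, against 76.3, 70.7 and 114 CPM in control females. By unadjusted p 0 of the X-linked P450 genes were lower, and DESeq2 called 0 lower. The whole list had 11 rises without MSL2 female 3 and 3 falls without control female 2. Of 35 glutathione transferase genes 3 rose and 4 fell, among them GstD5 at 1.38 (lost without control female 1 or 2) and CG9362 (GstZ1) at -0.71. The rises numbered 0 without control female 1, 1 without MSL2 female 1 or control female 2 and 5 without MSL2 female 3. The falls numbered 1 without MSL2 female 2 or control female 2, and 2 without control female 1.

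Structural cuticle genes had 8 rises and 0 falls among 64 tested (median 0.31), beside 6.62% of all genes that rose. Their summed CPM was 7896, 5141 and 5001 in MSL2 females, against 3921, 4889 and 5705 in control females, with overlap, and MSL2 female 1 and control female 3 were the highest of their groups. Ccp84Aa, at 7.37, 3.13 and 3.69 CPM in MSL2 females, against 1.17, 1.34 and 1.49 CPM in control females, rose by 1.83 on the log2 scale. Cpr47Ee, Cpr47Ea and Cpr47Ef, all on 2R, rose by 0.75, 0.78 and 0.66. By unadjusted p 15 cuticle genes were higher and 1 lower, and DESeq2 called 12 higher and 1 lower. The rises numbered 5 without MSL2 female 1, control female 1 or control female 2, and 0 passed in the fit on 6 female libraries, where 14 had an unadjusted p under 0.05. Of 43 odorant binding protein genes 3 rose and 1 fell, beside 6.62% and 3.67% of all genes. The calls of Pbprp1 and Obp59a were lost without MSL2 female 1 or 2 or control female 1 or 2. Without MSL2 female 3 the list had 5 rises and 3 falls, without MSL2 female 2 or control female 2 it had 2 falls, and without control female 1 it had 0 falls. Obp19a had 10.6, 10.4 and 8.05 CPM in MSL2 females, against 4.84, 4.96 and 5.61 CPM in control females (log2 fold change 0.91 ± 0.13), in contrast to the fall of Obp19c given above.

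Insulin, adipokinetic hormone and sugar metabolism genes gave 1 rise and 2 falls among 56, beside 6.62% and 3.67% of all genes. Beside tobi, Amyrel, an amylase relative, fell by 1.57, with every female library under 1 CPM. Ilp2, an insulin-like peptide of the brain, had 8.12, 8.92 and 6.80 CPM in MSL2 females, against 5.28, 5.37 and 4.81 CPM in control females (log2 fold change 0.62 ± 0.13), a call lost without MSL2 female 2 or control female 1 (adjusted p up to 0.0548). Among 20 fat body genes Fbp1 rose by 1.04, a call lost by leaving out any 1 library other than MSL2 female 3. Among 24 ecdysone genes shd (shade), the last enzyme of 20-hydroxyecdysone synthesis, fell by 0.60, and among 18 clock genes Clk rose by 0.35. Both calls were lost without MSL2 female 1 or 2 or control female 1 or 2.

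Ovary genes were lower in part and varied between libraries. In whole flies, fewer cells of a type and less RNA per cell cannot be told apart. The summed CPM of 24 eggshell genes was 381, 1658 and 2461 in MSL2 females, against 5767, 4529 and 3525 in control females. Every MSL2 female was below every control female, MSL2 female 1 was lowest, and none of the 24 genes was at 0 counts in any of these libraries. Of them 0 rose and 4 fell, beside 3.67% of all genes that fell, with a median log2 fold change of -1.83 (ndl, Fcp3C, Cp7Fb and psd among the genes named above and here). By unadjusted p 0 were higher and 15 lower, and DESeq2 called 0 higher. In the fit on 6 female libraries 0 passed, while 8 had an unadjusted p under 0.05. ndl (nudel), a protease gene of egg patterning, had 16.2, 33.6 and 48.3 CPM in MSL2 females, against 75.5, 68.8 and 74.7 CPM in control females, a log2 fold change of -1.16 that lost its call when MSL2 female 2, control female 1 or control female 2 was left out (adjusted p up to 0.0808). Leaving out MSL2 female 1, 2 or 3 gave 9, 1 or 10 eggshell falls, and leaving out control female 1 or 2 gave 1 or 0. The 4 yolk genes, all X-linked, had a median of -0.41 and 0 calls with edgeR or DESeq2, with 1 lower by unadjusted p. Their summed CPM was 9179, 11430 and 14746 in MSL2 females, against 16942, 17044 and 15300 in control females, without overlap. Counted without a test, 2 of the 4 were lower in every MSL2 female, beside 13.5% of all genes.

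Germline genes summed to 3467, 6687 and 7422 CPM in MSL2 females, against 8362, 7888 and 6407 CPM in control females, with overlap. Of 41 tested, fs(1)Yb rose and bam fell, beside 6.62% of all genes that rose and 3.67% that fell. fs(1)Yb, an X-linked gene of the piRNA pathway in ovarian somatic cells, had 9.36, 9.73 and 8.38 CPM in MSL2 females, against 4.73, 4.91 and 6.25 CPM in control females (log2 fold change 0.78 ± 0.12). bam, the differentiation factor of germline stem cell daughters, had 3.15, 4.26 and 4.77 CPM in MSL2 females, against 8.49, 8.37 and 6.96 CPM in control females (log2 fold change -0.97 ± 0.15, edgeR adjusted p = 0.00304). Neither gene overlapped between the groups, and both calls held without any 1 library. In the fit on 6 female libraries neither passed (edgeR adjusted p = 0.0616 and 0.0681). Of 46 testis genes 1 rose, eIF4E-3, below 1 CPM in every female library, and of 23 accessory gland genes 0 passed with edgeR, with 1 higher by unadjusted p and 1 called higher by DESeq2. The summed testis level was 94.6, 111 and 144 CPM in MSL2 females, against 158, 114 and 103 CPM in control females.

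Of 42 neuronal genes 4 rose and 0 fell, Cha (choline acetyltransferase), Snap25 and the nicotinic receptor genes nAcRbeta-64B and nAcRbeta-96A, beside 6.62% of all genes that rose. In the fit on 6 female libraries 0 passed, while 9 had an unadjusted p under 0.05. The summed level was 3915, 3075 and 2339 CPM in MSL2 females, against 2250, 2378 and 2998 CPM in control females, with overlap. When MSL2 female 2 or 3 was left out, 1 or 19 rose, when control female 3 was left out 10 rose, and 0 rose when any 1 of the remaining libraries was left out. By unadjusted p 16 neuronal genes were higher and 1 lower, and DESeq2 called 11 higher and 1 lower. In each group the same library stood apart. MSL2 female 1 and control female 3 had the highest muscle and neuronal sums of their groups and the lowest germline sums.

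The remaining lists had few calls, beside 6.62% of all genes that rose and 3.67% that fell. Of 14 heterochromatin genes 0 passed with edgeR, 7 were lower by unadjusted p and DESeq2 called 1 lower (median -0.25). Of 25 gut protease genes, which mark digestive tissue like the lysozymes, 0 passed, 2 were lower by unadjusted p and DESeq2 called 2 lower. Their summed CPM was 4384, 8415 and 9071 in MSL2 females, against 9146, 9318 and 5764 in control females, with overlap. Of 24 heat shock genes Hsc70-2 rose by 0.42 and Hsc70-5, a mitochondrial chaperone gene, fell by 0.22. The first was lost without MSL2 female 1 or 2 or control female 1, and the other without any 1 library except MSL2 female 3. Of 5 Turandot stress peptide genes 0 passed with edgeR, while 1 was lower by unadjusted p and by DESeq2.

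Over all 13060 genes 1344 passed the test, 10.3%, of which 865, 64.4%, were higher in MSL2 females. With scaling factors from autosomal genes alone, 1440 passed and 74.9% of them were higher, and with DESeq2 2054 passed and 54.8% were higher. Without 1 library the number ranged from 543 (control female 2) to 2851 (MSL2 female 3). It was 826 without MSL2 female 2 and 584 without control female 1. In the fit on 6 female libraries 156 genes passed, 1.19%, with 109 higher, 0.835%, and 47 lower, 0.360%, and 155 of these were among the 1344. The female libraries held 27729411 to 56843908 counts in MSL2 females and 33849887 to 79622278 in control females. At these depths 3 counts, taken as the floor, correspond to 0.0377 to 0.108 CPM.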

How the data were processed

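Per the labels' protocols, total RNA was extracted with TRIZOL, and an Illumina TruSeq kit was used for the libraries. Per the submitters' processing notes, TopHat and HTSeq were used with dm3, with no version named. The sources used here do not say how strand was handled. The authors deposited raw counts per RefSeq transcript and, for each table, a fraction of that table's column total (largest difference 5e-10), which was not used. The transcript with the highest total over 12 libraries was kept per gene. Gene order came from the RefSeq Release 6 annotation, so no coordinates are given; 21508 transcripts matched by accession, 1172 by name and 58 not at all.

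Counts were tested in R 4.3.3 with edgeR 4.0.16 (TMM over both tables, filterByExpr with minimum count 10, quasi-likelihood F test of group means over all 12 libraries, Benjamini-Hochberg threshold 0.05). The SE is the absolute log2 fold change over the square root of F. DESeq2 1.42.0 and the other settings in the closing section were alternatives. In simulated counts 35.8% of 1.5-fold, 67.2% of 2-fold and 92.4% of 4-fold changes were called, with 7 false calls, over 13019 genes. These counts were drawn with the spread of the fit on 12 libraries, which was lower than that of the 6 female libraries alone. The simulation therefore cannot show the error at the higher spread of the females. Replicates are biological per the labels and correlated at 0.982 to 0.994 (Pearson across genes, log2 CPM). The members and gene lists were chosen with earlier results of these data known. Named genes were msl-2, roX1, roX2, w and the MSL genes; among called genes without overlap between the groups and with a mean of 3 or more log2 CPM, the 10 largest rises and 6 largest falls on the X chromosome, 4 and 4 on chromosome 2 and 6 and 6 on chromosome 3; all called chromosome 4 genes; and, for each list, at most 4 called members, by smallest p. Others were named where few were called or to account for a list, after their values were seen. Libraries were treated as unpaired. Same-numbered libraries of the groups correlated at -0.435, 0.198 and -0.556 in their deviations from the group mean, and other pairs at -0.24 to 0.584.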

Additional observations from a re-analysis of the deposited data

How the results depend on the processing

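The direction of the X shift held in every setting. X minus autosome was 0.2232 to 0.2395 over all alternatives, which were DESeq2 size factors and test, scaling factors from autosomal genes, no filter on low counts, the 6 female libraries alone, the replicate block, the transcript with the highest female total and each library left out in turn. Counts of calls depended more on the setting. With DESeq2 2054 genes passed, with 640 autosomal rises and 908 autosomal falls. On the 6 female libraries alone 156 passed, with 72 X-linked rises, 0 X-linked falls, 37 autosomal rises and 47 autosomal falls. With the replicate number as a block on these 6 libraries, 10 genes passed, with 2 X-linked rises, 0 X-linked falls, 1 autosomal rise and 7 autosomal falls. The labels name no batch, and the libraries were treated as unpaired. Same-numbered libraries did not deviate together, which cannot show whether they were paired. Without 1 library, the count ranged from 543 to 2851 over all genes, from 251 to 542 for X-linked rises, from 2 to 46 for X-linked falls, from 147 to 998 for autosomal rises and from 127 to 1265 for autosomal falls. The fit on females alone had fewer libraries and a higher estimated spread. The cause of these differences in counts was not tested.

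Of 108 named genes that passed the test, 107 also passed with DESeq2, 105 with scaling from autosomal genes, all but 4 with no filter, 107 with the other transcript, 29 on the 6 female libraries, 8 with the block and 63 to 108 without 1 library, and none changed sign. The all-gene median moved by -0.04 with DESeq2 and 0.03 with scaling from autosomal genes. The near-zero medians of 8 lists changed sign under one of these scalings: MSL complex, insulin and sugar, cytochrome P450, glutathione transferase and proteasome with DESeq2, and sex determination, testis and fat body with scaling from autosomal genes. Depth limits genes near 0.108 CPM, the floor of the smallest female library. The groups also differ in TM3, and no alternative could separate it from the transgene.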
